A study of Mus musculus with 6 samples.

Results

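The genes described here are those of xenobiotic metabolism, the enzymes that oxidise, hydrolyse and conjugate drugs, pollutants and related endogenous compounds. They were measured in mouse bladder at embryonic day 18.5, on 3 arrays of Get1 -/- (null) and 3 arrays of Get1 +/- (heterozygous) bladders. Get1 is another name of Grhl3, a transcription factor of surface epithelia. Heterozygous bladders carry 1 mutant allele and served as the control, and no wild-type bladder was analysed here. The sample titles give null array 1 the number 1 and the other 5 arrays the number 2 before the array number. What that number stands for is not given in the labels. The labels do not say whether bladders were pooled for an array, and the p-values measure the spread between these arrays. Members were all genes whose symbol on the array places them among the flavin monooxygenases (Fmo), cytochrome P450 families 1 to 3 (Cyp), carboxylesterases (Ces), quinone reductases (Nqo1 and Nqo2), epoxide hydrolases (Ephx1 and Ephx2), glutathione transferases (Gst), UDP-glucuronosyltransferases (Ugt) and sulfotransferases (Sult). That gave 104 of the 18193 genes with a probe set of their own. A further 8 probe sets carried several symbols at once, among them every probe set of the Ugt1a locus, and are described without naming a gene.

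Foreign compounds are usually handled in stages. Phase I enzymes add or expose a reactive group by oxidation (Cyp, Fmo), reduction (Nqo) or hydrolysis (Ces, Ephx), and phase II enzymes then attach glutathione (Gst), glucuronic acid (Ugt) or sulfate (Sult), which makes the product easier to excrete. Liver and small intestine are the best known sites of these enzymes, and the urothelium that lines the bladder also carries several of them, facing urine in which such products are concentrated.

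The smooth muscle marker Acta2 had signals of 35562 to 38014 in null and 30733 to 39244 in heterozygous bladders, and the urothelial marker Upk1b had 4675 to 6130 and 5838 to 9729, so both layers of the labelled tissue were seen on every array. Other smooth muscle markers, Des, Cnn1 and Actg2, were higher on every null array without passing the test (log2 differences 0.80, 0.58 and 0.17), and Myh11 overlapped (0.10). The urothelial markers differed among themselves, as described below. Median signals over all probe sets were 58.2 to 70.4 on null and 64.1 to 72.4 on heterozygous arrays. The Grhl3 probe set read 76.6, 21.5 and 119.7 on null against 143, 133 and 126 on heterozygous arrays, without passing the test (log2 difference -0.95, SE 0.44, adjusted p = 0.655, limma). Its position with respect to the deletion was not analysed here, so it does not check the labels.

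Over all members 4 genes rose in null bladders, the glucuronosyltransferases Ugt2b34, Ugt2b35 and Ugt2b36 and the carboxylesterase Ces1c, and 1 gene fell, the flavin monooxygenase Fmo5. These were the members with an adjusted p under 0.05 in limma over 12735 genes, after the 30% of genes with the lowest mean level (log2 under 5.80, a signal of 39.7) had been left out. Of the 104 members 41 passed that filter and 63 did not. Among all genes tested 0.448% rose and 0.0628% fell. Of the 4 that rose, Ces1c, Ugt2b35 and Ugt2b36 had heterozygous means below the filter and were tested because their null levels were high. When every gene was tested without a filter, the members called were 4 higher and 1 lower out of 104, against 0.297% and 0.0495% of all 18193 genes. Within the 5 arrays that share a title number, that is without null array 1, the differences were 3.70 for Ugt2b34, 4.4 for Ugt2b35, 5.33 for Ces1c and -3.83 for Fmo5, all past the threshold (adjusted p from 0.00327 to 0.0118, limma), and Ugt2b36 was not tested. Fewer cells of a type and less RNA per cell cannot be told apart in whole bladders, here or below.

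The 3 Ugt2b genes that rose lie in 1 cluster on mouse chromosome 5, and the sequence before their starts is shown because they rose together. Each line gives the 250 bases upstream of the start in the RefSeq table of build GRCm38.p6, 5′ to 3′ in the direction of the gene. The windows are chr5:86906938-86907187 (minus strand) for Ugt2b34, chr5:87000610-87000859 (plus strand) for Ugt2b35 and chr5:87092556-87092805 (minus strand) for Ugt2b36. Capitals mark the motif matches described after the sequences.
Ugt2b34: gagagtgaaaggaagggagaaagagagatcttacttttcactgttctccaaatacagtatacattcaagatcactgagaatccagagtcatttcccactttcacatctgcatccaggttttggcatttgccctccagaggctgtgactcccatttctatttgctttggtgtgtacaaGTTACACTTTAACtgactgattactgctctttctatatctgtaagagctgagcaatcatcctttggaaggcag
Ugt2b35: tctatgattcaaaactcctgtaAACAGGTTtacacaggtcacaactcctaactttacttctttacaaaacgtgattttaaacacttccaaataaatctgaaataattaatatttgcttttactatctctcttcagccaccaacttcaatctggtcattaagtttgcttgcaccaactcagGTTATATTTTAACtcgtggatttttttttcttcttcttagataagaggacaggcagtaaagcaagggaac
Ugt2b36: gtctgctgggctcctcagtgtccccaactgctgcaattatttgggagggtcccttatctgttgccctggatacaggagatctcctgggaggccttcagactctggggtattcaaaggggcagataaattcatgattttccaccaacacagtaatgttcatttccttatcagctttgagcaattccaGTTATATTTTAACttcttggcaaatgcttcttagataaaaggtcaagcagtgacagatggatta

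All 3 windows hold a match to GTTA and TTAAC set 4 bases apart, 73, 70 and 64 bases before the start of Ugt2b34, Ugt2b35 and Ugt2b36. Its arms resemble those of the element bound by HNF1, a transcription factor family of liver, gut and kidney epithelium. This pattern was chosen after the windows had been read. On both strands it occurs in 56 of 32851 windows of the same length before mouse gene starts (0.17%). A shorter HNF1 pattern, GTTAAT and ATT set 1 base apart, occurs in 0.371% of windows and in 0 of these 3. The other capitals, in Ugt2b35, mark a match on the opposite strand to AACCNGTT, a pattern of grainyhead-like factors found in 1.79% of windows. A match is a description of these letters and not a binding site. The 3 genes are close relatives in 1 cluster, so their matches need not be independent. The windows of Ugt2b1, Ugt2b5, Ugt2b37 and Ugt2b38, which lay below the filter, were not examined singly. Whether the GTTA and TTAAC pattern is particular to the genes that rose was not tested. Searches on both strands for CAAAGNNCA (HNF4), TTTATNG (CDX), TGACNNNGC (antioxidant response) and GCGTG (xenobiotic response), which occur in 5.49%, 9.81%, 10.2% and 28.2% of windows, found no match in the 3 windows.

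The same window is shown for the other genes that changed, Ces1c (chr8:93131284-93131533, minus strand) and Fmo5 (chr3:97628769-97629018, plus strand).
Ces1c: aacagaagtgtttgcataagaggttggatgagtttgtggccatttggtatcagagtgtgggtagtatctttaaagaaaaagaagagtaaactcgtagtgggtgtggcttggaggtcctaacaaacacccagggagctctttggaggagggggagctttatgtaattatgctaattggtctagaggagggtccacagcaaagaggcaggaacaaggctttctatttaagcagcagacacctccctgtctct
Fmo5: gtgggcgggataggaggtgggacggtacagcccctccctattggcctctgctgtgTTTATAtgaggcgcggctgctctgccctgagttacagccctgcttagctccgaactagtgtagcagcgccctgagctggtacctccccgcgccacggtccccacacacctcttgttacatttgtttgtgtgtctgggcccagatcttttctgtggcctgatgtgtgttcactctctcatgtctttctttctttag

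In these windows the 1 match was TATAAA, the letters of a TATA box. It lay on the opposite strand, 195 bases before the start of Fmo5 (capitals), and the pattern occurs in 12.4% of windows. No letters of the Ces1c window matched any of the patterns.

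Among phase II members the genes that passed were all Ugt2b genes. They encode enzymes of the endoplasmic reticulum that attach glucuronic acid to steroids, bile acids and drugs. Ugt2b34 had signals of 1473, 1588 and 2079 on null arrays 1 to 3, against 159.7, 128 and 93.9 on heterozygous arrays 4 to 6. Every null array lay far above every heterozygous array, and the heterozygous signals were themselves above the filter. Log2 levels averaged 10.74 ± 0.26 for null and 7.14 ± 0.34 for heterozygous arrays (SD, n = 3 each), a 12.2-fold rise (SE 0.26 on the log2 scale, adjusted p = 7.3e-04, limma). A second Ugt2b34 probe set gave 1232, 1439.6 and 2003 in null and 174, 70.3 and 91.8 in heterozygous bladders, and passed when each probe set was tested on its own (log2 difference 3.67, adjusted p = 0.00772, limma).

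Ugt2b35 had 389, 687 and 662 on null arrays, against 2.55, 45.2 and 15.1 on heterozygous arrays. Of these heterozygous signals 2 were below the filter and close to the lowest level the scale allows, so the log2 difference of 4.14 (SE 0.44, adjusted p = 0.00529, limma) depended on the offset. It was 2.92 with an offset of 64 and 5.35 with an offset of 1, and with an offset of 1 the call was lost (adjusted p = 0.0889, limma). Ugt2b36 had 115, 109.5 and 106 on null arrays, which differed little among themselves, against 2.61, 19.7 and 7.3 on heterozygous arrays. It rose by 2.34 on the log2 scale (SE 0.27, adjusted p = 0.00888, limma). All its heterozygous signals were below the filter, and the difference was 1.24 with an offset of 64, still past the threshold (adjusted p = 0.0192, limma), and was not tested with an offset of 1. Its mean log2 level of 5.81 was the lowest of any tested member and lay just above the filter of 5.80, while the highest member below it, Ces1h, stood at 5.79. When any 1 null array was left out, Ugt2b36 fell below the filter and was not tested.

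**Figure D1:**
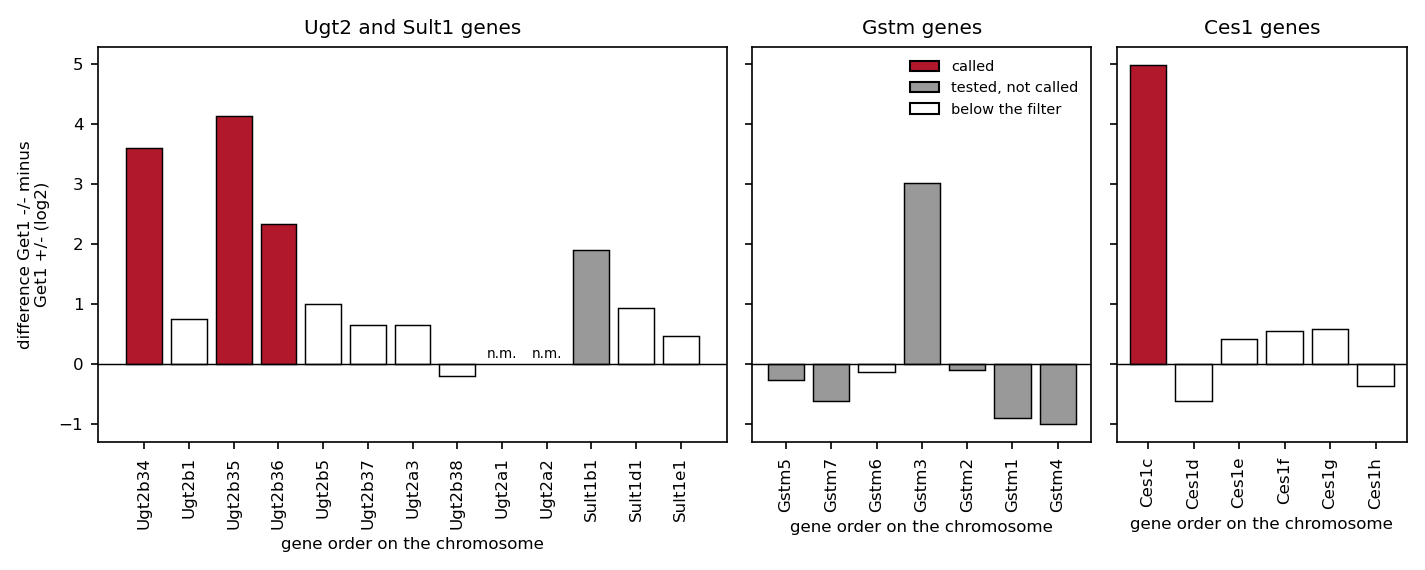
Difference between Get1 -/- and Get1 +/- bladders (log2, vertical axis) for protein-coding genes in their order on the chromosome, in the Ugt2 and Sult1, Gstm and Ces1 clusters. Red bars passed the test, grey bars were tested and did not pass, white bars lay below the filter, and n.m. marks genes with no probe set of their own. The called genes Ugt2b35 and Ugt2b36 lie next to each other. Called genes also lie beside neighbours that were too dim to test, as Ugt2b1 (0.75) beside Ugt2b34 (3.60). Gstm3 (3.02), which did not pass, stands among Gstm genes with differences of -1.01 to -0.10.

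The order of genes in the cluster, from the GRCm38.p6 gene table, was Ugt2b34, Ugt2b1, Ugt2b35, Ugt2b36, Ugt2b5, Ugt2b37, Ugt2a3 and Ugt2b38, followed by Ugt2a1 and Ugt2a2, which share 1 probe set, and by the sulfotransferases Sult1b1, Sult1d1 and Sult1e1. The other 5 Ugt2 members lay below the filter, with signals up to 71.4 (Ugt2b5 on null array 2). Ugt2b1, which sits between called neighbours, had a difference of 0.75. The Ugt2b enzymes are close relatives, and a probe set of one can read transcripts of another. The probe sequences were not analysed here.

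The Ugt1a locus makes a family of enzymes that conjugate bilirubin, phenols and hormones from alternative first exons and shared later exons. Its 3 probe sets carried 8 symbols each and name no single gene. The brightest gave 4124, 4079 and 4029 on null arrays against 2058, 1884 and 2635 on heterozygous arrays. The others gave 1271 to 1727 in null against 692 to 1224 in heterozygous bladders, and 568 to 581 against 207 to 324. On all 3 probe sets the null arrays lay above the heterozygous arrays, with log2 differences of 0.90, 0.83 and 1.1, and none passed when probe sets were tested on their own (adjusted p = 0.512, 0.684 and 0.389, limma). That test called 0.206% of 31526 probe sets, 0.184% higher and 0.0222% lower. Among the 72 tested probe sets of the members it called 5 higher and 2 lower, all of them probe sets of the 5 genes named above.

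Of the 12 sulfotransferases 4 were tested and 0 passed, with a median log2 difference of -0.29 against -0.03 over all genes tested. Sult1b1, which sulfates phenols and thyroid hormones, had 46.8, 137 and 185 on null arrays against 18, 35.3 and 5.11 on heterozygous arrays. The groups did not overlap, null array 1 was the lowest of its group, and its difference, 1.90 (SE 0.49), missed the threshold (adjusted p = 0.291, limma). Sult5a1, Sult1a1 and Sult4a1 had differences of -0.61, -0.34 and -0.24 (adjusted p = 0.751, 0.861 and 0.95, limma), each with overlapping groups.

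Of the 20 glutathione transferases 16 were tested, and none passed in either direction. In these data 7 of the 16 had positive and 9 negative differences, with a median of -0.10. Groups did not overlap for 3 higher and 4 lower transferases, and over all genes tested this held for 6.07% higher and 7.36% lower. The transferases with separate groups were, on the higher side, Gstm3, Gsto1 and Gstt2, and on the lower side Gsta2, Gstm1, Gstm4 and Gstt1.

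Gstm3, of the mu class, gave 78.9, 418 and 495 on null arrays, against 18.6, 2.16 and 46.4 on heterozygous arrays. Null array 1 stood well below the other null arrays. The difference was 3.02 (SE 0.69, adjusted p = 0.218, limma), and without null array 1 it was 3.79 and passed (adjusted p = 0.0292, limma). The probe set is of the _s_at type, which can match several transcripts, and a second Gstm3 probe set stayed dim, with signals of 0.664 to 23.3 in null and 1.34 to 3.22 in heterozygous bladders. Gsto1, of the omega class, which reduces dehydroascorbate, gave 4587, 4341 and 5348 in null against 1919.9, 1834 and 3368 in heterozygous bladders (log2 difference 1.05, SE 0.28, adjusted p = 0.327, limma). On its second probe set, which is not of the _x_at type, the groups overlapped and the difference was 0.65.

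Gsta2, of the alpha class, had 48, 108 and 161 on null arrays, against 383, 248 and 746 on heterozygous arrays. All null arrays lay below all heterozygous arrays, and the spread within each group was wide (log2 level 6.81 ± 0.75 for null and 8.75 ± 0.77 for heterozygous arrays, SD, n = 3 each). Its difference, -1.95 (SE 0.48), missed the threshold (adjusted p = 0.28, limma). A further alpha class probe set, shared by several symbols, gave 159, 56.9 and 140.2 against 163, 97.4 and 132, with overlapping groups. Gstm1, an abundant mu class enzyme, had 1918, 2912 and 2822 in null against 3662, 4568 and 6307 in heterozygous bladders (difference -0.91, adjusted p = 0.428, limma), and its other 3 probe sets gave -0.93, -1.36 and -1.21. Gstm4 had 187, 320.0 and 226 against 387, 485 and 652 (difference -1.01, adjusted p = 0.362, limma). Gstt1, of the theta class, had 384, 518 and 280.4 against 658, 656 and 1049.9 (difference -0.98, adjusted p = 0.424, limma). For each of these 3 genes every null array was below every heterozygous array, and none of the differences passed the test.

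The remaining glutathione transferases differed less. Gsta4, which conjugates the lipid peroxidation product hydroxynonenal, had signals of 11716 to 14975 in null and 9593 to 14378 in heterozygous bladders (difference 0.17, SE 0.24). Gstp1, of the pi class, had 4931 to 6595 in null and 5871 to 6962 in heterozygous bladders (difference -0.11, SE 0.22). Gstk1, Gstz1, Gstm2, Gstm5 and Gstt3 had differences of 0.04, -0.11, -0.10, -0.27 and 0.16 (adjusted p from 0.858 to 0.985, limma). Gstt2 stood at 0.59 and Gsta3 at 0.51, and both missed the threshold (adjusted p = 0.583 and 0.76, limma). A second Gsta3 probe set gave 0.64.

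**Figure D2:**
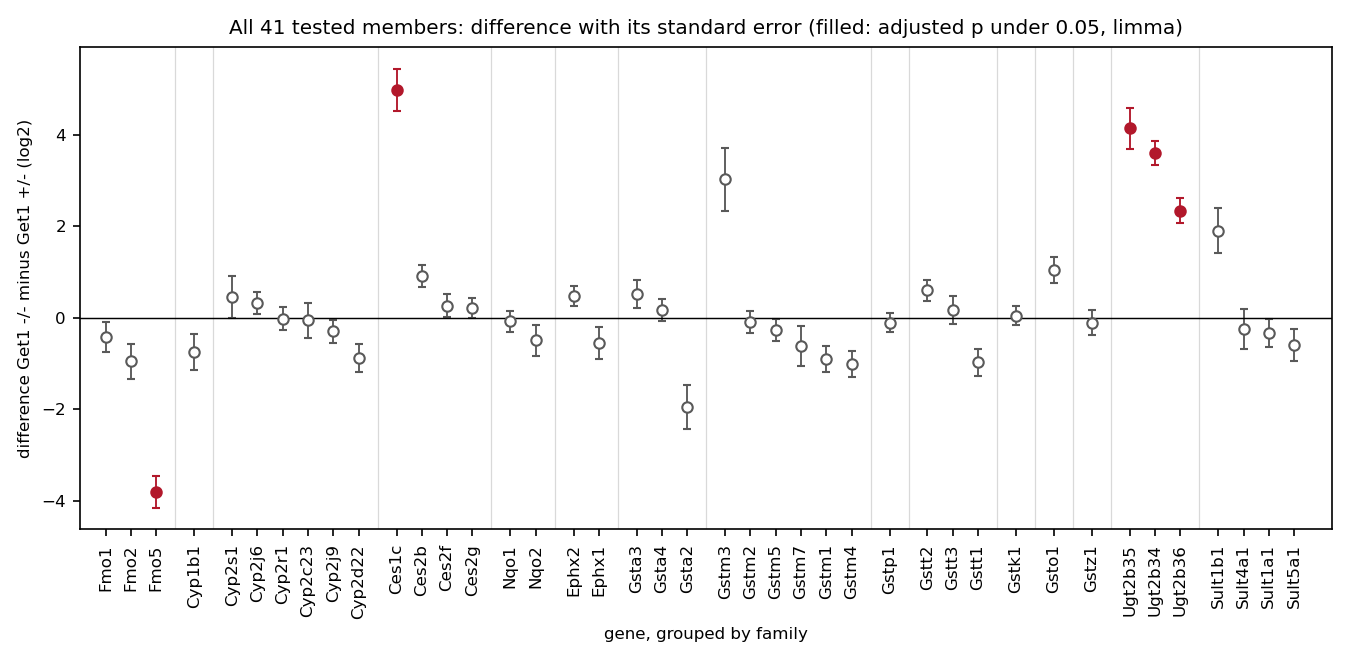
Difference between Get1 -/- and Get1 +/- bladders (log2, vertical axis) with its moderated standard error for the 41 tested members, grouped by family along the horizontal axis. Filled red points passed the test and open points did not. The 4 genes that rose (2.34 to 4.98) and the 1 that fell (-3.81) stand apart from most members, while Gstm3 (3.02), Sult1b1 (1.90) and Gsta2 (-1.95) did not pass.

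Among phase I enzymes the change with the smallest adjusted p was that of Fmo5. Flavin monooxygenases oxidise nitrogen and sulfur atoms of drugs and food compounds, and Fmo5 differs from the others in oxidising carbonyl compounds. Fmo5 had 156, 224 and 98.4 on null arrays, against 1975, 1921 and 3356 on heterozygous arrays. No null array came near a heterozygous one, and both groups lay above the filter. Log2 levels averaged 7.39 ± 0.54 for null and 11.20 ± 0.45 for heterozygous arrays (SD, n = 3 each), 14.0-fold lower in null (log2 difference -3.81, SE 0.35, adjusted p = 0.00223, limma).

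The Fmo5 probe set is of the _s_at type and can match other transcripts. A second Fmo5 probe set read 33.3, 11.4 and 29.9 in null against 397, 324 and 757 in heterozygous bladders, and also passed on its own (difference -3.59, adjusted p = 0.0124, limma). The last one gave 45.2, 35.9 and 71.7 against 144, 77.1 and 125, a smaller difference of -0.97 that did not pass (adjusted p = 0.631, limma). With the probe sets averaged the difference was -2.79 and passed (adjusted p = 0.00122, limma). Fmo2, known from lung, had 177, 304 and 398 in null against 345, 679 and 721 in heterozygous bladders, with overlapping groups (difference -0.95, SE 0.38, adjusted p = 0.59, limma). That Fmo2 probe set is also of the _s_at type. Its other probe sets gave smaller differences of -0.56, -0.63, -0.33 and -0.24, and the groups were separate only for that of -0.63. Fmo1 had a difference of -0.42 (SE 0.33, adjusted p = 0.828, limma), and Fmo4 lay below the filter with signals up to 27.6.

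Carboxylesterases cleave esters and amides of drugs and lipids. Ces1c, which in mice is known as a secreted esterase of plasma, had 659, 1304 and 1449 on null arrays, against 2.66, 24.2 and 38.9 on heterozygous arrays. The heterozygous signals were all below the filter. The difference of 4.98 on the log2 scale (SE 0.46, adjusted p = 0.00224, limma) was the largest rise among the members and depended on the offset, being 3.76 with an offset of 64 and 6.12 with an offset of 1, where the call was lost (adjusted p = 0.0534, limma). Its 5 neighbours in the Ces1 cluster, Ces1d to Ces1h, lay below the filter with differences of -0.62 to 0.58.

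Of the 13 carboxylesterases 4 were tested, 1 rose and 0 fell, with a median of 0.59. Ces2b had 170.5, 204 and 257 in null against 105, 89.7 and 117 in heterozygous bladders (difference 0.91, SE 0.23, adjusted p = 0.291, limma), with separate groups. Ces2f and Ces2g had differences of 0.26 and 0.22 (adjusted p = 0.871 and 0.877, limma). A second Ces2f probe set gave 81.9 to 148 in null against 6.01 to 55.3 in heterozygous bladders, and did not pass on its own (difference 1.61, adjusted p = 0.519, limma).

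The cytochrome P450 genes, the largest group of members, were mostly dim. Of 43 genes 7 were tested and none passed, and the 36 others had signals of at most 103 on any array. All 5 members of family 3, whose relatives carry out much of drug oxidation in liver, lay below the filter. Cyp2d22 had 132, 145 and 168 on null arrays against 216, 236 and 450.4 on heterozygous arrays, the 1 tested P450 gene with separate groups (difference -0.88, SE 0.30, adjusted p = 0.511, limma). On its second probe set the groups overlapped and the difference was -0.13. Cyp1b1, which hydroxylates oestrogens and polycyclic hydrocarbons, had 1052, 608 and 348 in null against 1248, 832 and 1049.6 in heterozygous bladders, with overlapping groups (difference -0.74, adjusted p = 0.722, limma). A second Cyp1b1 probe set went the other way (0.48), and with probe sets averaged the difference was -0.28. Cyp1a1 and Cyp1a2, the classical targets of the aryl hydrocarbon receptor, had signals of 0.675 to 18 in null and 1.06 to 42 in heterozygous bladders. Cyp2s1, Cyp2j6 and Cyp2j9 had differences of 0.45, 0.31 and -0.30 (adjusted p = 0.882, 0.818 and 0.843, limma).

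Quinone reductases and epoxide hydrolases did not pass. Nqo1, a standard target of the antioxidant response factor Nfe2l2, had 822, 598 and 735 in null against 803, 868 and 619 in heterozygous bladders (difference -0.08, SE 0.24, adjusted p = 0.971, limma). Nqo2 had a difference of -0.50 (adjusted p = 0.796, limma), which was -0.01 when its probe sets were averaged. Ephx2, the soluble hydrolase of lipid epoxides, had 174, 151 and 203 in null against 117, 138 and 109.7 in heterozygous bladders (difference 0.48, adjusted p = 0.641, limma). Ephx1, the microsomal hydrolase of foreign epoxides, had a difference of -0.56 with overlapping groups (adjusted p = 0.769, limma).

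Over all 41 tested members the median difference was -0.08, against -0.03 for all genes, and groups did not overlap for 10 higher and 6 lower members, against 13.4% of all genes in either direction. Of these 10, Ces1c, Gstm3, Sult1b1, Ugt2b35 and Ugt2b36 had heterozygous means below the filter, so their separation is partly set by how they came to be tested. Among the 36 members with both group means above the filter, 1 rose (Ugt2b34) and 1 fell (Fmo5), against 0.245% of such genes called in either direction, and 11 had separate groups, against 12.7%. Of the 63 members below the filter, 6 had higher and 2 had lower null arrays with no overlap, against 4.86% and 5.9% of the 5458 genes below the filter. The 6 were Cyp2c65, Cyp2c68, Cyp2d12, Cyp2d26, Gstp3 and Ugt2b5, and the 2 were Cyp2e1 and Sult2a8, all named after their values had been seen. Cyp2e1 had signals of only 0.532 to 1.04 in null and 1.75 to 4.28 in heterozygous bladders. Gstp3 had 54.2, 51 and 53.3 in null against 3.37, 2.28 and 18.8 in heterozygous bladders, and without the filter it did not pass (adjusted p = 0.149, limma).

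**Figure D3:**
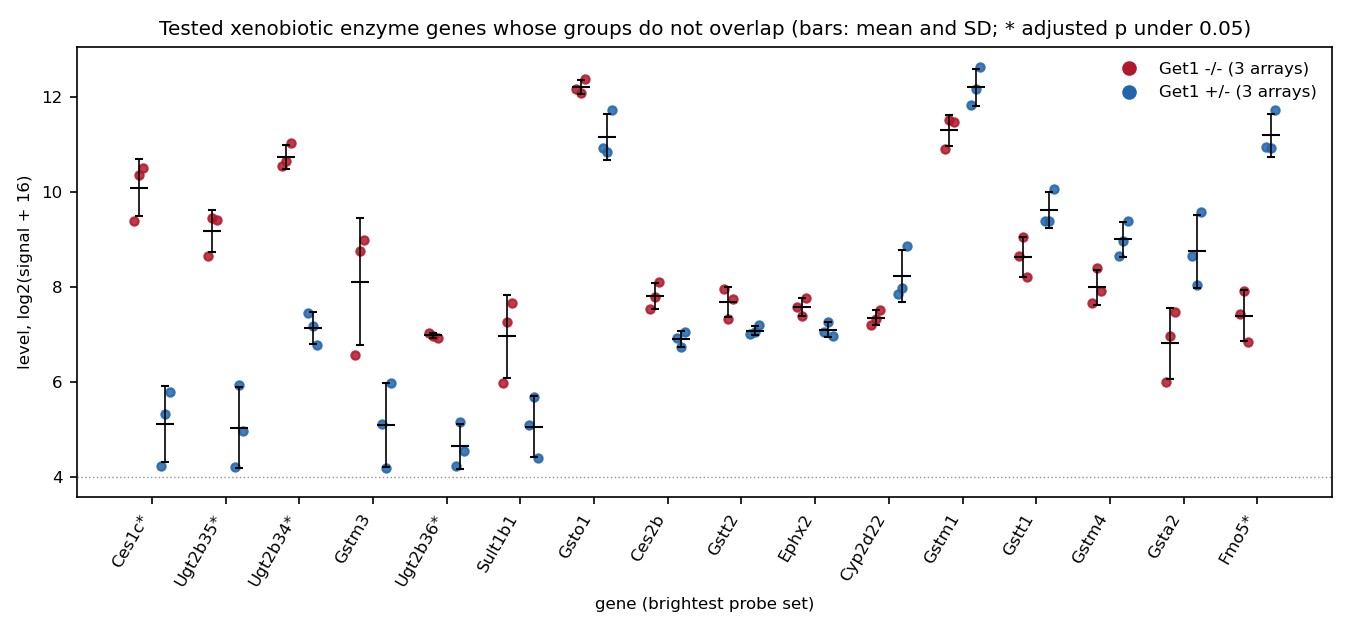
Levels, as log2(signal + 16), of the 16 tested members whose Get1 -/- (red) and Get1 +/- (blue) arrays do not overlap. Points are arrays, bars are means with SD (n = 3 each), the dotted line is the lowest possible level of 4, and a star marks an adjusted p under 0.05. Heterozygous levels of Ces1c, Ugt2b35, Gstm3, Ugt2b36 and Sult1b1 sit near the dotted line.

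Markers of other cell types were read on the same arrays, because gut and liver are the best known sources of these enzymes. The intestine list rose together with the members that rose. Of its 13 markers 11 were tested, 8 rose and 0 fell, against 0.448% and 0.0628% of all genes tested. Of those that rose, Cdh17, Fabp1, Tff3, Guca2a, Muc2 and Cdx2 had heterozygous means below the filter. They were tested because their null levels were high. Vil1 and Lgals4 had both group means above the filter. The summed signal of the list was 13257, 20851 and 22813 on null arrays, against 407, 412 and 643 on heterozygous arrays. Of the null sums Tff3 alone gave 6710, 11176.5 and 11787. Fabp2, Apoa4 and Slc5a1 were tested, had overlapping groups and did not pass (adjusted p = 0.576, 0.796 and 0.83, limma). Vil1, which bundles actin in microvilli, had 509.8, 924 and 1081 in null against 36.7, 39.9 and 64.7 in heterozygous bladders. Null array 1 had the lowest intestine sum of its group. It was also the lowest null array for 6 of the 10 higher members with separate groups (Ces1c, Ugt2b34, Ugt2b35, Gstm3, Sult1b1 and Ces2b). That order was not particular to the higher members. Null array 1 was the lowest null array for 4 of the 6 lower members as well, and its median signal of 58.2 was the lowest of any array. The part of the intestine markers in the rise of Ces1c and the Ugt2b genes was not tested.

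Liver markers did not move in this way. Of 9 with a probe set 6 were tested and 0 passed, and the summed signal was 1465 to 7282 in null and 1066 to 6108 in heterozygous bladders. Of these sums Ttr alone gave 762, 5344 and 4824 on null and 3076, 593 and 750 on heterozygous arrays. Albumin (Alb) had 24, 1.91 and 74 on null arrays against 995, 124 and 43.9 on heterozygous arrays, so the array with the most albumin was a heterozygous one. The list had 1 tested marker with separate groups, Cps1, an enzyme of urea synthesis in liver and also in gut, with 376, 1499.8 and 2186 in null against 151, 154 and 88.1 in heterozygous bladders (difference 2.93, adjusted p = 0.16, limma). Below the filter Fgb, a fibrinogen chain, was separate in the other direction, with 4.86, 6.45 and 4.36 in null against 132, 18.2 and 10.5 in heterozygous bladders. Alb, Afp, Apoa2, Apoh, Fga and Ahsg also had lower means in null, with overlapping groups and differences of -2.35 to -0.40. Ttr overlapped with a higher mean in null (1.27). Of 6 kidney tubule markers 1 was tested and 0 passed, with sums of 159 to 438 in null and 103 to 187 in heterozygous bladders. The tested marker was Cubn, with 87.9, 204 and 333 in null against 42.6, 31.3 and 56.7 in heterozygous bladders (difference 1.77, adjusted p = 0.264, limma). Below the filter Umod was also higher on every null array (0.93), Aqp2 was lower on every null array (-1.17), and Slc34a1, Lrp2 and Slc12a1 overlapped. Of 4 markers of prostate and seminal tract 3 had a probe set, 2 were tested and 0 passed. The summed signal was 387, 1305 and 1262 on null arrays against 105, 85.7 and 241 on heterozygous arrays, so this sum too was higher on every null array. Spink1 made up most of the null sums, with 260, 1113 and 984, and Hoxb13 was also higher on every null array. Pbsn, below the filter, overlapped and went the other way (difference -0.77). The part of the kidney tubule and prostate lists in the members' differences was not tested.

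Beside the fall of Fmo5, the urothelium list had 8 tested markers of which 1 fell and 0 rose. Over all genes tested the shares were 0.0628% lower and 0.448% higher. The marker that fell was Upk2, a uroplakin of the bladder surface, with 193, 321 and 200.4 in null against 1899, 1696 and 2496 in heterozygous bladders. Upk1a was also lower on every null array and did not pass (difference -2.36, adjusted p = 0.199, limma). The other markers had overlapping groups, with Upk1b at -0.55, Upk3a at -0.49 and Krt20 at -0.35. Krt5, Krt7 and Trp63 went the other way, at 0.03, 0.36 and 0.82. The summed signal of the list was 14003 to 15678 in null and 15962 to 23016 in heterozygous bladders, and its part in the fall of Fmo5 was not tested. Heterozygous array 6 was the highest heterozygous array for all 6 lower members with separate groups (Cyp2d22, Fmo5, Gsta2, Gstm1, Gstm4 and Gstt1). Without it the difference of Fmo5 was -3.55 and passed (adjusted p = 0.0113, limma), and that of Gsta2 was -1.53. The immune marker Csf1r had 7247 on heterozygous array 6, against 1818 and 2448 on the other heterozygous arrays, and Ptprc was also highest there, while Cd68 lay between the others. The summed signal of these 3 markers was 2056 to 2593 in null and 2200.4 to 7798 in heterozygous bladders, and its part in the members' differences was not tested.

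**Figure D4:**
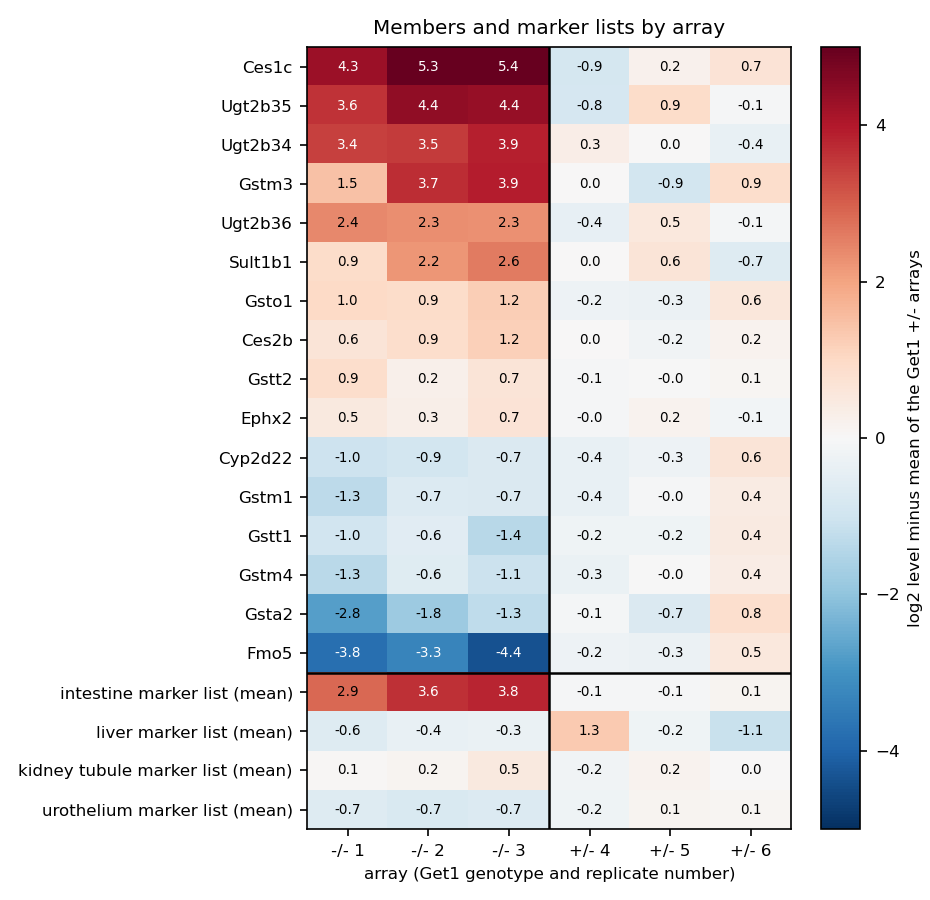
Log2 level of each array minus the mean of the Get1 +/- arrays, for the 16 tested members with separate groups and for the mean over 4 marker lists (rows), on the Get1 -/- arrays (left) and the Get1 +/- arrays (right). Red is higher and blue lower than the heterozygous mean. The intestine list was higher on null arrays by 2.86 to 3.83, and the liver list differed most among heterozygous arrays (-1.1 to 1.30).

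Genes that work with these enzymes were read from 6 further lists with 95 entries, of which 73 were tested, 2 rose and 0 fell. Over all genes tested the shares were 0.448% higher and 0.0628% lower. Of 12 sensors and regulators 1 rose, Hnf4a, a transcription factor of liver and gut epithelium that drives many of these enzymes in liver. Its signals were 2780.2, 3997 and 3295 in null against 165, 69.4 and 166 in heterozygous bladders (difference 4.56, adjusted p = 8.7e-04, limma), on a probe set that can match other transcripts. When its probe sets were averaged the difference was 1.19 and the call was lost (adjusted p = 0.0885, limma). Nfe2l2 and the retinoid receptor Rxra had differences of 0.50 and -0.52 (adjusted p = 0.583 and 0.643, limma), and that of Nfe2l2 was -0.47 with probe sets averaged.

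Of 11 other conjugating enzymes 1 rose, Mgst2, a membrane enzyme that joins glutathione to leukotriene A4 and to foreign compounds. It had 665, 648 and 777 in null against 250.5, 237 and 212 in heterozygous bladders (difference 1.51, SE 0.20, adjusted p = 0.0205, limma). With 1 array left out at a time Mgst2 missed the threshold in 5 of 6 fits, with differences of 1.44 to 1.56 and adjusted p up to 0.139. Its relative Mgst3 had a difference of 1.53 with a wider spread (SE 0.40, adjusted p = 0.313, limma).

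Of 20 other oxidising and reducing enzymes 0 passed, while groups did not overlap for 2 higher and 7 lower, against 6.07% and 7.36% of all genes tested. Adh7 and Adh1 are alcohol dehydrogenases that also oxidise retinol. Adh1 had 1659, 1327 and 1438 in null against 4126, 4757 and 9439 in heterozygous bladders (difference -1.95, SE 0.33, adjusted p = 0.0694, limma), and Adh7 had 41, 25.3 and 103 against 249, 366 and 437 (difference -2.45, SE 0.41, adjusted p = 0.0623, limma). Under some other settings they passed, as both did with an offset of 64 (adjusted p = 0.0221 for Adh1 and 0.0209 for Adh7, limma). The aldo-keto reductase Akr1b8 had 866, 699 and 1114 against 293, 242 and 415 (difference 1.46, adjusted p = 0.125, limma). Of 12 glutathione and redox genes 0 passed, with Hmox1 at 0.70, Slc7a11 at -0.83 and Gsr at 0.84 (adjusted p = 0.553, 0.715 and 0.738, limma). Of 13 transporters 0 passed, with Slco2b1 at -0.60, Abcc1 at 0.56 and Slco3a1 at 0.76 (adjusted p from 0.532 to 0.629, limma). Of 6 listed partners of P450 enzymes 5 had a probe set of their own, and Por did not. All 5 were tested and 0 passed, with differences of -0.09 to 0.07.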

How the data were processed

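Each deposited value is the linear intensity of 1 probe set on 1 array. The submitters' processing notes list Affymetrix Expression Console 1.1 and PLIER 2.0, and the background step and normalization were not stated. Symbols came from the platform annotation, and 0 of 104 member symbols were altered through the GRCm38.p6 gene table. A gene's level was that of its brightest probe set over all 6 arrays (for 7 members an _s_at and for 3 an _x_at probe set, which can match several transcripts), as log2(signal + 16), so fold changes of dim genes are understated. The genotype comparison used lmFit and eBayes of limma 3.58.1 under R 4.3.3 (two-sided, null minus heterozygous, Benjamini-Hochberg over all 12735 genes, threshold 0.05), checked on simulated data. For 3 against 3 arrays the smallest p of an exact permutation test is 0.1, reached by every gene with separate groups. Members, lists and the naming rule were chosen with earlier results of these data known. Named were Grhl3, called members, and per family or list the 3 with the smallest p, and per family the 3 with the highest mean. Upstream sequence is RefSeq's, cut to 250 bases before the start. Alternatives covered the offset, filter, normalization, probe set choice, weights, variance model and each array left out. Detection calls were not used here, and the number of arrays limits the precision.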

Additional observations from a re-analysis of the deposited data

How the results depend on the processing

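No paired analysis was possible because the last number of each title, taken as the replicate, is 1 to 3 for null and 4 to 6 for heterozygous arrays, so no replicate number is shared. The first number, 2 on all arrays but null 1, pairs no single arrays. The count of members that rose was 1 with an offset of 1, 2 with the lowest 50% of genes left out, 1 among genes with both group means above the filter (an alternative chosen after seeing the data), and 3 to 4 with 1 array left out. Fmo5 fell in all 16 alternatives. Over all genes 57 rose and 8 fell, against 35 and 5 with an offset of 1, 38 and 5 with the 50% filter, 66 and 10 with an offset of 64, 65 and 11 with arrays centred, 67 and 9 with trend and robust fitting, 77 and 12 with array weights, and 37 to 57 and 5 to 9 with 1 array left out. Genes of the related lists that rose numbered 1 without a filter, 1 with probe sets averaged, 1 without _s_at and _x_at probe sets and 1 to 2 with 1 array left out. Those that fell numbered 2 with an offset of 64, 1 with arrays centred, 1 with probe sets averaged, 1 with array weights, 2 with trend and robust fitting and 0 to 1 with 1 array left out. The Ces median was 0.32 with an offset of 1, 0.81 with 64, 0.41 without a filter, 2.60 with the 50% filter, 0.91 with probe sets averaged, 0.26 without _s_at and _x_at probe sets and 0.20 to 1.28 with 1 array left out. The Ugt2 median was 4.55 with an offset of 1, 2.92 with 64, 0.87 without a filter and 3.43 to 4.05 with 1 array left out. With the 50% filter the medians were -0.56 (Ephx), -0.89 (Gsta) and -0.41 (Gstt), without a filter 0.73 (Gstp) and 0.078 (Gsto), with probe sets averaged -0.046 (Nqo), and without _s_at and _x_at probe sets 0.65 (Gsto). Signs turned for genes that had not passed. Cyb5r3 was 0.054 with probe sets averaged and 0.17 with array weights, and Nfe2l2 was -0.47 with probe sets averaged. With 1 array left out the ranges were -0.33 to 0.23 (Cyb5r3), -0.075 to 0.84 (Cyp2s1), -0.049 to 0.13 (Gstk1), -0.26 to 0.093 (Gstm2), -0.19 to 0.019 (Gstp1), -0.10 to 0.44 (Gstt3), -0.36 to 0.048 (Gstz1), -0.22 to 0.040 (Nqo1) and -0.75 to 0.084 (Sult4a1). The changes of filter alter which genes are tested, and the cause of the others was not tested. Differences against levels near the lowest possible one are limited by signal over background.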
